A study of Homo sapiens with 8 samples.

Results

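CLK1, CLK2, CLK3 and CLK4 encode the CDC2-like kinases, which phosphorylate the SR proteins, serine- and arginine-rich factors that help the spliceosome find exons. They were chosen by gene symbol, and they are 4 of the 12067 genes in 10 tables of splicing events. RNA of U2OS cells, a human osteosarcoma line, was sequenced 48 h after transfection with either EGFP siRNA, the control, which targets a reporter gene, or CHERP#2 siRNA, both at 20 nM. CHERP is a nuclear protein that binds the U2 snRNP, the particle that recognises the branch point of an intron. Each siRNA was studied in whole cells and in the cytoplasm, the supernatant of a lysis with 1% NP-40, with 2 libraries for each of the 4 groups. All groups come from 1 cell line, and CHERP was targeted by 1 siRNA.

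CLK transcripts are known for detained introns, that is, introns that stay in a polyadenylated RNA which is held in the nucleus. In these kinases the detained introns lie on both sides of exon 4. Exon 4 is itself a cassette exon: a transcript that skips it shifts the reading frame and can code only for a protein without the kinase domain. The kinases act on the splicing of their own transcripts, so retention, skipping of exon 4 and the amount of mRNA are usually followed together.

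The tables count, library by library, the reads that fit the inclusion form of a splicing event and those that fit its skipping form. Event types are retained introns (RI), skipped exons (SE), alternative 3′ and 5′ splice sites (A3SS and A5SS) and mutually exclusive exons (MXE). Reads of both forms were divided by the form's effective length, and the inclusion level is the percentage that belongs to the inclusion form. Summed over all events, a whole-cell library held 29409956 to 35664568 reads and a cytoplasmic library 5370756 to 6580099, where a read on several events counts at each. The 4 kinases had 69 of the 89379 whole-cell events and 22 of the 43559 cytoplasmic events. VIM, FN1 and CDH2, markers of a mesenchymal line such as U2OS, were read in whole cells, whereas RUNX2, of the osteoblast lineage, had a mean of 9.25 reads and 4 of the 8 markers of that list had no event. Of 7 markers of other cell types, only CDH1 had an event, with a mean of 9.75 reads in whole cells and 6.25 in the cytoplasm.

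CHERP itself had 103 and 77 reads in the whole-cell EGFP siRNA libraries and 3 and 10 in the CHERP siRNA libraries. Its abundance, the summed reads per position of its events, changed by -3.45 on the log2 scale (SE 0.57, adjusted p = 0.00139, limma). In the cytoplasm it had 31 and 21 reads against 3 and 4, too few for the test.

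Where the retained introns lie matters for reading the values, and the gene models show it.

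**Figure D1:**
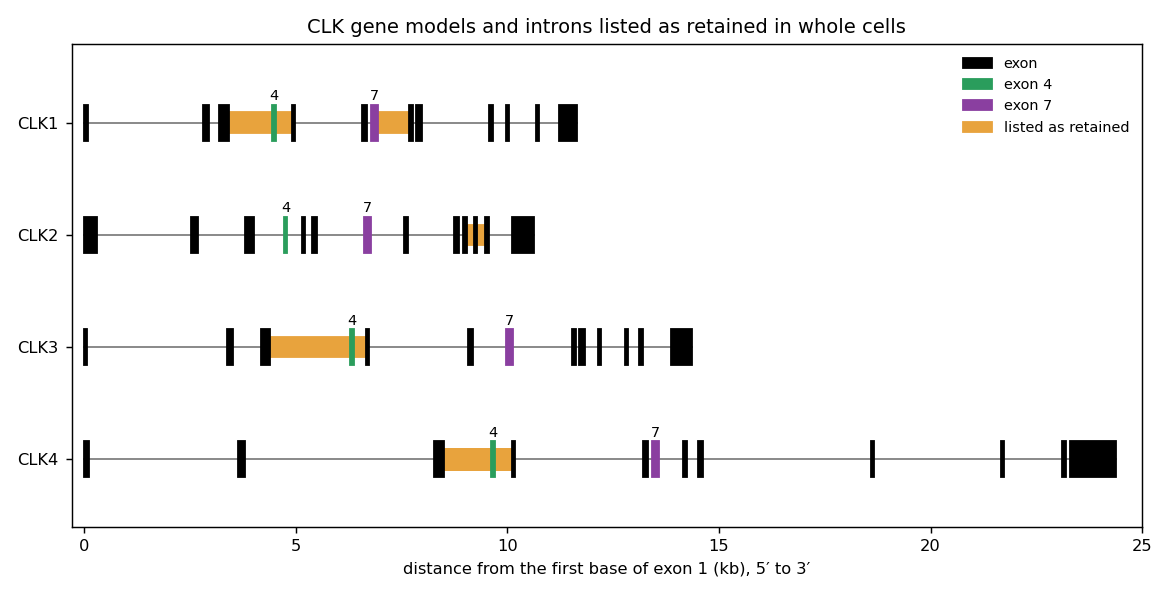
Exons and introns of the canonical transcript of each CLK gene, drawn to scale from the first base of exon 1 (kb on the horizontal axis), with exon 4 in green, exon 7 in purple and every stretch listed as retained in whole cells in orange. Each gene has 13 exons. Retained stretches lie on both sides of exon 4 in CLK1, CLK3 and CLK4, and CLK1 has another between exons 7 and 8.

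All positions are those of GRCh37, the assembly also called hg19. On the minus strand of chromosome 2, CLK1 has introns 3 and 4 and the exon 4 between them listed as 1 retained stretch (201724470 to 201725960), and also intron 7 (201721709 to 201722440). CLK4, on the minus strand of chromosome 5, has intron 3 (178044436 to 178045556), intron 4 (178043950 to 178044344) and both with exon 4 as a further event. CLK3, on the plus strand of chromosome 15, has intron 3 (74912567 to 74914460) and intron 4 (74914558 to 74914834). CLK2 differed: on the minus strand of chromosome 1, its single event spans introns 10 and 11 with exon 11 (155233832 to 155234258), and the introns around its exon 4 were not listed. In the cytoplasm, the 2 introns of CLK3 were the whole set.

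The 5′ splice sites of these introns are shown because U1 pairs with them in the first step of splicing. Each line gives 3 bases of the exon and 6 of the intron, 5′ to 3′, with the first 2 intron bases in capitals.
CLK1 intron 3: gggGTatga
CLK4 intron 3: tcgGTatga
CLK3 intron 3: tcgGTgagt
CLK1 intron 4: gatGTatag
CLK4 intron 4: gatGTatag
CLK3 intron 4: gatGTacag
CLK1 intron 7: attGTaagt

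CLK1 and CLK4 share the first 6 bases of intron 3, GTATGA, and those of intron 4, GTATAG. Among 183667 annotated introns, 1.01% begin with GTATGA and 0.243% with GTATAG, whereas 14.1% begin with GTGAGT, as intron 3 of CLK3 does, and 13.9% with GTAAGT, as intron 7 of CLK1 does. GTACAG, at intron 4 of CLK3, begins 0.613%. All 48 introns of the 4 canonical transcripts start with GT and end with AG.

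The 3′ splice sites of introns 3 and 4 are given next because the U2 snRNP, the partner of CHERP, is recruited on that side. Each line holds 20 bases of the intron and 3 of the exon, with the last 2 intron bases in capitals.
CLK1 intron 3: cgcccacttgacgtttccAGaag
CLK4 intron 3: ctgcccacttgccgttccAGaag
CLK3 intron 3: tcggggggcggtgcatgcAGaga
CLK1 intron 4: gatttatttctctcttttAGatg
CLK4 intron 4: tttttccctcctcactctAGatg
CLK3 intron 4: caatttcttttctctcctAGatg

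Base composition set introns 3 and 4 of CLK3 apart from those of CLK1 and CLK4. In CLK2, where these introns were not listed as retained, they have 60.4% and 51.7% G and C. Intron 3 has 32.6% G and C in CLK1 and 31.9% in CLK4 but 58.5% in CLK3. Intron 4 has 26.2% in CLK1, 30.4% in CLK4 and 48.7% in CLK3, and in CLK1 and CLK3 it is the intron with the least G and C of the 12. Intron 4 is also short: 378 bases in CLK1, 395 in CLK4 and 277 in CLK3. The difference in base composition was not particular to introns 3 and 4. All 12 introns of CLK3 ranged from 48.7% to 62.0% G and C. Those of CLK1 ranged from 26.2% to 49.5% and those of CLK4 from 25.6% to 43.0%.

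Exon 4 is printed to show how alike CLK1 and CLK4 are there. The exon has 91 bases in both genes, of which 85 are the same, and capitals mark the 6 that differ.
CLK1 exon 4: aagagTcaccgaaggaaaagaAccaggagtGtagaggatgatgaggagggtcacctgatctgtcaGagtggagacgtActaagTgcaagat
CLK4 exon 4: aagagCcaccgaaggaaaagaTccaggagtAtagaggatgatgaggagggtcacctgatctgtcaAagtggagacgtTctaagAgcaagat

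How reads that match both copies were placed is not given in the sources used here, so values at exon 4 of CLK1 and CLK4 are uncertain to that extent. Exon 7, described further on, shares 140 of 167 bases between the same genes.

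Retention with CHERP siRNA was compared first in whole cells. No retained intron of a CLK gene passed the test, 0 of 8, against 1.77% of all retained introns tested. At an unadjusted p under 0.05 there was 1, intron 3 of CLK4. Limma on the log2 odds called 0 of all whole-cell events, so its result for the CLK introns adds nothing. In 2 of the 8, both CHERP siRNA libraries lay above both EGFP siRNA libraries, a pattern that 18% of all retained introns show. The median difference of the 8 was 2.55 percentage points, against -0.0814 over 3539 retained introns. Each value below is a retention level, the inclusion level of the unspliced form.

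Intron 3 of CLK4 stood at 6.50% and 4.65% in the EGFP siRNA libraries and at 18.5% and 17.98% in the CHERP siRNA libraries. Both CHERP siRNA values were above both controls, and the means were 5.58% ± 1.31 and 18.3% ± 0.398 (SD, n = 2). The difference of 12.7 points did not pass the adjustment (adjusted p = 0.274, quasi-binomial test over all retained introns). The reads behind it were few, 9 to 52 unspliced and 11 to 36 spliced per library.

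Introns 3 and 4 of CLK1, with exon 4, stood at 37.6% and 36.2% with EGFP siRNA and at 42.6% and 46.4% with CHERP siRNA. The groups did not overlap here either. The means were 36.9% ± 0.939 and 44.5% ± 2.65 (SD, n = 2), 7.61 points apart, with an adjusted p of 0.921 in the same test. Where a retained stretch holds a cassette exon, its spliced form counts only the junction that skips the exon, so this level is not the share of CLK1 transcripts that keep the introns.

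The other retained introns overlapped between the siRNAs. Intron 4 of CLK4 was at 16.5% and 27.4% against 35.6% and 24.5%. The CLK4 stretch with exon 4 was at 28.6% and 10.2% against 21.5% and 25.7%. Neither passed the test (adjusted p = 0.921 for both, quasi-binomial test).

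Intron 7 of CLK1, which follows the skipped kinase exon, was at 7.33% and 8.73% with EGFP siRNA and at 7.44% and 9.19% with CHERP siRNA. The libraries of the siRNAs thus lay within 2 points of each other. The CLK2 stretch was at 85.3% and 100% against 100% and 86.8%. Its spliced form counts only the junction that skips exon 11, which had 0 or 1 read per library. Exon 11 as a skipped exon had 171 and 251 inclusion reads against 208 and 204. The level of the stretch is therefore not the share of CLK2 transcripts that keep introns 10 and 11.

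The introns of CLK3 had small differences, of either sign. Intron 3 of CLK3 was at 7.31% and 12.5% with EGFP siRNA and at 11.9% and 9.69% with CHERP siRNA. Intron 4 was at 3.72% and 10.1% against 2.23% and 5.39%. Both had overlapping groups, with adjusted p-values of 0.937 and 0.918 (quasi-binomial test).

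**Figure D2:**
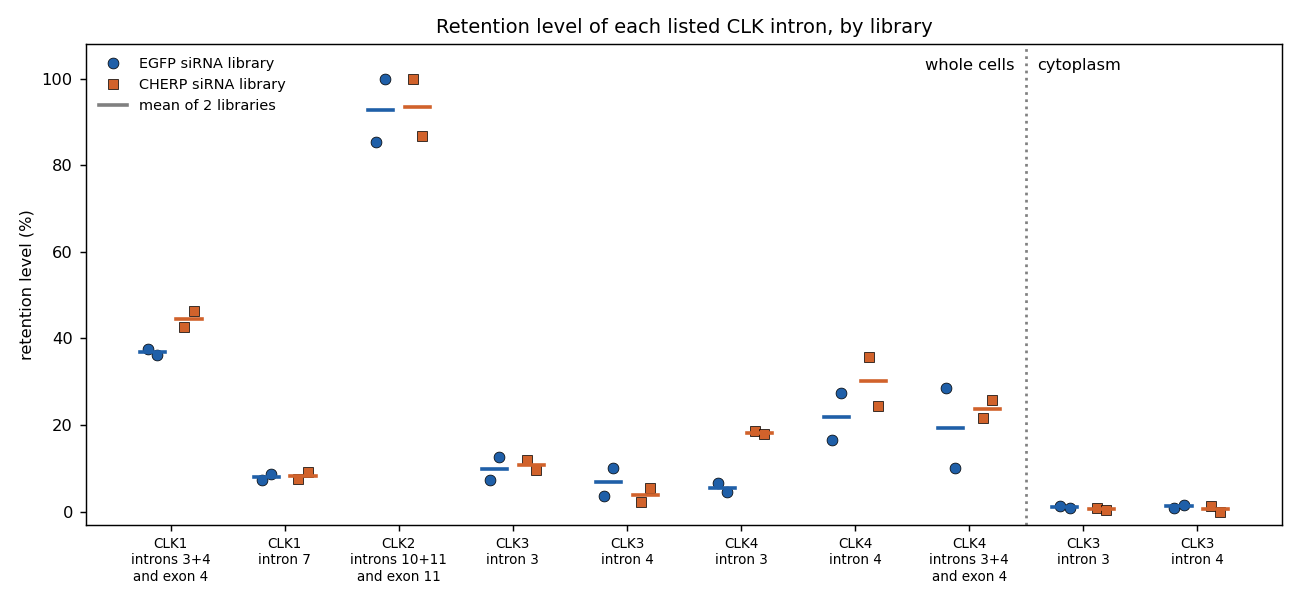
Retention level (%, vertical axis) of every retained CLK intron in each library, EGFP siRNA as blue circles and CHERP siRNA as orange squares, with a line at the mean of 2 libraries. The siRNAs separate at intron 3 of CLK4 (6.50% and 4.65% against 18.5% and 17.98%) and at introns 3 and 4 of CLK1, and the cytoplasmic levels of CLK3 on the right lie under 2%. For the stretches of CLK1, CLK2 and CLK4 that hold an exon, the level is not the share of transcripts that keep the introns.

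A level is a share, so the retained and the spliced form were also tested apart, as scaled reads per 1000 positions. No form of a whole-cell CLK intron passed, 0 of 16, where 1.71% of all retained forms and 13.8% of all spliced forms did. At an unadjusted p under 0.05 there was 1, the retained form in CLK1. The retained form of the CLK1 stretch was at 158 and 151 with EGFP siRNA and at 191 and 336 with CHERP siRNA. Its log2 difference was 0.68 (SE 0.29), with an adjusted p of 0.259 (limma), and it was 0.29 without whole-cell CHERP siRNA library 2 and 1.08 without library 1. The retained form of CLK4 intron 3 was at 18.8 and 6.81 against 16.5 and 41.1, and its spliced form at 270 and 140 against 72.3 and 187. Neither form of CLK4 intron 3 was separated between the siRNAs, although their ratio was.

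Exon 7 was the clearest change in the CLK transcripts. The exon has 167 bases in all 4 genes and codes for a piece of the kinase domain. Its length is no multiple of 3, so a transcript without it is out of frame. It is printed for CLK1, where it changed, and for its closest copy, with the 27 differing bases in capitals.
CLK1 exon 7: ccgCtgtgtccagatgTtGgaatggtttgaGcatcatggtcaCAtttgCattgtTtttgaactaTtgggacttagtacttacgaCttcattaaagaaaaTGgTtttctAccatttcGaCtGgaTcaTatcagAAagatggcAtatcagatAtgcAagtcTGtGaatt
CLK4 exon 7: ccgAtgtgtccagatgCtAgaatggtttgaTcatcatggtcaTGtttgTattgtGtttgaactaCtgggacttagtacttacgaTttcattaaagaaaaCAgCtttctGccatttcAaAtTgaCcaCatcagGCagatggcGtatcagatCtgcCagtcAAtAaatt

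In CLK1 (chromosome 2, 201722441 to 201722607), skipping of exon 7 was at 0.595% and 2.87% with EGFP siRNA and at 13.4% and 10.1% with CHERP siRNA. The junction that skips the exon had 1 and 5 reads in the controls and 27 and 17 after CHERP siRNA, beside 326 to 377 inclusion reads per library. Mean skipping was 1.73% ± 1.61 and 11.8% ± 2.31 (SD, n = 2), so inclusion fell by 10.0 points. This was the 1 event of the 69 that passed (adjusted p = 0.0255, quasi-binomial test), where 0.998% of all whole-cell events and 1.07% of all skipped exons did. Without any 1 of the 4 libraries, the difference lay between -11.7 and -8.39 points and the adjusted p was 1.00. The alternative test, limma on the log2 odds, gave an adjusted p of 0.518 and called none of the events in the table.

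The same junction is listed as an alternative 3′ splice site of CLK1, with an adjusted p of 0.0706, and is not separate evidence. In all, 5 events of the kinases had an unadjusted p under 0.05 in whole cells. Over the 69, the CHERP siRNA libraries were both above the controls in 8, both below in 13, and overlapped in 48. Over all whole-cell events, 14.2% were above and 14.3% below, and several CLK events share the same junction reads.

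Exon 7 of CLK3 (chromosome 15, 74918143 to 74918309) was skipped in 0 of 223 and 0 of 227 reads of EGFP siRNA libraries, which allows skipping levels of up to 2.82% and 2.78%. With CHERP siRNA, 4 and 2 skipping reads gave 4.76% and 2.34%. Exon 7 of CLK2 (chromosome 1, 155236520 to 155236686) had 0 skipping reads in both controls, with limits of 2.73% and 2.03%. With CHERP siRNA it had 5 and 1, that is 3.96% and 0.896%. At these junctions, from exon 6 to exon 8, each CHERP siRNA library had reads and no control did, but neither passed the test (adjusted p = 0.73 for CLK3 and 0.762 for CLK2, quasi-binomial test). A junction from exon 6 to exon 9 of CLK2, which leaves out exon 8 as well, had 2 and 9 reads in the controls and 5 and 0 after CHERP siRNA. Its counterpart in CLK1 had 0 and 0 against 2 and 0. Exon 7 of CLK4 was not listed as a skipped exon, and no cytoplasmic event had an exon 7 alone as its skipped exon. Only a CLK1 event that joins exon 7, intron 7 and exon 8 was listed there. It had 34 and 27 inclusion reads in the controls and 29 and 20 after CHERP siRNA, with 0 and 0 skipping reads against 1 and 0. Limits and levels cover counting error only.

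**Figure D3:**
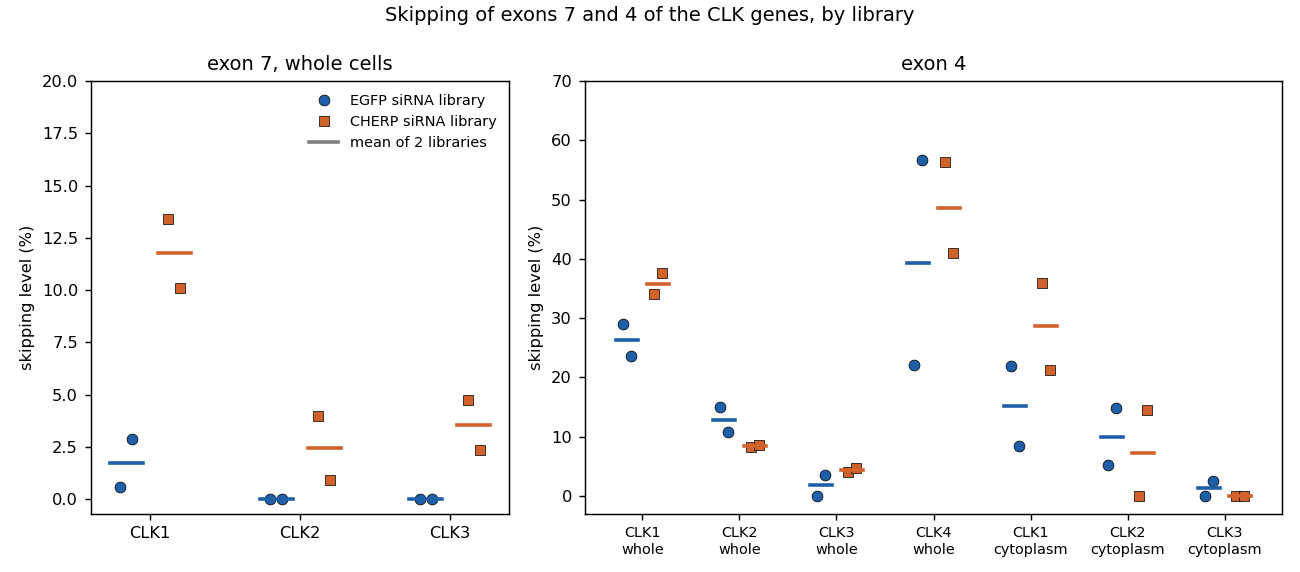
Skipping level (%, vertical axes, with different ranges) of exon 7 in whole cells and of exon 4 in both fractions, in each library, with a line at the mean of 2 libraries. Skipping of CLK1 exon 7 was 0.595% and 2.87% in EGFP siRNA libraries (blue circles) and 13.4% and 10.1% in CHERP siRNA libraries (orange squares).

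Exon 4, the exon between the detained introns, was looked at after its values were known. In CLK1, skipping of exon 4 was at 29.0% and 23.6% with EGFP siRNA and at 34.1% and 37.6% with CHERP siRNA, without overlap (adjusted p = 0.762, quasi-binomial test). In CLK4 it was at 22.1% and 56.6% against 56.3% and 41.0%, on 34 to 67 reads per library. CLK1 and CLK4 skipped the exon most. In CLK2, whose exon 4 has 88 bases, skipping was at 14.95% and 10.8% against 8.32% and 8.66%. In CLK3, whose exon 4 has 97 bases, skipping was at 0% and 3.59% against 4.02% and 4.69%. The direction thus differed between genes, and no exon 4 event passed the test.

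A further exon of CLK4 was singled out after its values were seen. It has 836 bases (178046839 to 178047674), lies in intron 2 and belongs to annotated transcripts that are targets of nonsense-mediated decay. It was included at 20.1% and 9.23% in the controls, against 40.8% and 38.2% after CHERP siRNA. The siRNAs did not overlap, and the difference of 24.9 points did not pass the adjustment (adjusted p = 0.0926, quasi-binomial test). Its adjusted p ranged from 0.0011, with the floor on the dispersion set later, and 0.00643, without a trend, to 0.191 with the larger dispersion and 0.625 with limma, and was 1.00 without any 1 library. In the cytoplasm the exon rested on 17 reads in all, at 7.43% and 24.3% against 7.43% and 19.4%. In whole cells the same exon is also listed with a 67-base exon as its flank. There it was at 100% and 72.6% against 100% and 100%, with overlap (adjusted p = 0.762, quasi-binomial test). A 59-base form of the exon was at 26.2% and 14.1% against 28.5% and 44.8%, without overlap (adjusted p = 0.762, quasi-binomial test).

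Of the 41 skipped-exon events in whole cells, some of which list the same exon with other flanks, 27 had an inclusion level of at least 90% in every library, as had 5 of 14 in the cytoplasm. The event with the most reads was among the former in each gene. In CLK1 it joined exon 7, intron 7 and exon 8, with 408 and 429 inclusion reads against 421 and 417, and 0 to 2 skipping reads. Its skipping form is the junction from exon 6 to exon 9, so reads within exons 7 and 8 count as inclusion also where intron 7 is spliced out. This level is therefore not the share of transcripts that keep intron 7, whose retention level was 7.33% to 9.19%. In CLK4 the event with the most reads was exon 9, with 69 and 69 inclusion reads against 81 and 95, and 0 or 1 skipping reads. For CLK2 and CLK3 it was exon 7.

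The cytoplasm showed no called change of CLK splicing with CHERP siRNA: 0 of 22 events passed the quasi-binomial test, where 0.21% of all events and 0.299% of all retained introns did. None had an unadjusted p under 0.05, and the smallest adjusted p was 0.790. Intron 3 of CLK3 was at 1.33% and 0.901% with EGFP siRNA and at 0.919% and 0.462% with CHERP siRNA. Intron 4 of CLK3 was at 0.880% and 1.62% against 1.42% and 0%, the last on 31 spliced reads, which allow up to 1.98%. Skipping of CLK1 exon 4 was at 21.9% and 8.40% against 36.0% and 21.2%, with overlapping libraries. At 17 to 409 reads over 4 libraries for each skipped exon, changes of the size seen in whole cells could be missed.

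Retention in the cytoplasm was then compared with that in whole cells, for 19 CLK events listed at the same coordinates in both. Intron 3 of CLK3 was lower in the cytoplasm under each siRNA. With EGFP siRNA its mean level was 9.91% in whole cells and 1.11% in the cytoplasm, 8.91 times lower (adjusted p = 2.88e-07, quasi-binomial test). With CHERP siRNA it was 10.8% and 0.691%, 15.7 times lower (adjusted p = 7.80e-07). The 4 cytoplasmic libraries, 0.462% to 1.33%, all lay below the 4 whole-cell libraries, 7.31% to 12.5%.

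This was 1 called event of 19 with each siRNA. Over all event types 4.49% were called with EGFP siRNA and 5.43% with CHERP siRNA, and over retained introns 19.1% and 24.9%. Without cytoplasmic EGFP siRNA library 1 or 2, the adjusted p was 0.0652 or 0.174. Without cytoplasmic CHERP siRNA library 1 or 2, it was 0.0879 or 0.101. Fraction and read length cannot be told apart here, since the effective length of a junction is 144 positions in the whole-cell tables and 73 in the cytoplasmic tables.

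Intron 4 of CLK3 was at 6.90% in whole cells and 1.25% in the cytoplasm with EGFP siRNA (adjusted p = 0.0639) and at 3.81% and 0.709% with CHERP siRNA (adjusted p = 0.243, quasi-binomial test). Exon 4 of CLK4 was included at 60.6% in whole cells and 90.01% in the cytoplasm with EGFP siRNA, and at 51.4% and 84.5% with CHERP siRNA, on 40 cytoplasmic reads in all (adjusted p = 1.00 for both). Within each siRNA the cytoplasmic libraries lay above the whole-cell libraries, whereas over both siRNAs the fractions overlapped. The change with CHERP siRNA differed between the fractions in 0 of 19 events (smallest adjusted p = 0.938, interaction in the quasi-binomial model), against 0.0208% of all events.

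In the cytoplasm no intron of CLK1, CLK2 or CLK4 was listed as retained. Intron 3 of CLK4 with exon 4 was listed there as an alternative 5′ splice site, on 12 reads over 4 libraries. Intron 7 of CLK1 lay there within a skipped-exon event. For CLK1, CLK2 and CLK4 the fractions were compared by the reads at exon 4, which is measured in all 4 genes. Here a level is the reads on both forms per position, divided by that of CLK3 in the same library, so that no scaling between libraries enters. In whole cells CLK1 was at 1.85 and 3.04 times CLK3 with EGFP siRNA and at 2.30 and 3.50 times with CHERP siRNA. In the cytoplasm it was at 0.542 and 0.601 against 0.617 and 0.548. CLK1 was thus above CLK3 in each whole-cell library and below it in each cytoplasmic library.

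CLK4, too, was lower relative to CLK3 in the cytoplasm. It was at 0.556 and 0.760 times CLK3 in whole cells with EGFP siRNA and at 0.535 and 1.14 times with CHERP siRNA. In the cytoplasm it was at 0.119 and 0.168 against 0.148 and 0.125 times. CLK2 was at 0.616 to 1.08 times CLK3 in whole cells and at 0.419 to 0.535 times in the cytoplasm.

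Exon 10, of 83 bases in CLK1 and in CLK3, gave the same order for this pair. CLK1 was at 1.85 and 2.04 times CLK3 in whole cells with EGFP siRNA and at 3.01 and 3.21 times with CHERP siRNA. In the cytoplasm it was at 0.252 and 0.189 against 0.480 and 0.258 times. These ratios were chosen after the values were seen and are given without a test. Reads from unspliced RNA count at these exons, and a lower CLK1 level and a higher CLK3 level in the cytoplasm cannot be told apart. Fraction and read length cannot be told apart in these ratios either. How reads that match both CLK1 and CLK4 were placed is not given, and its effect on the ratios was not tested.

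**Figure D4:**
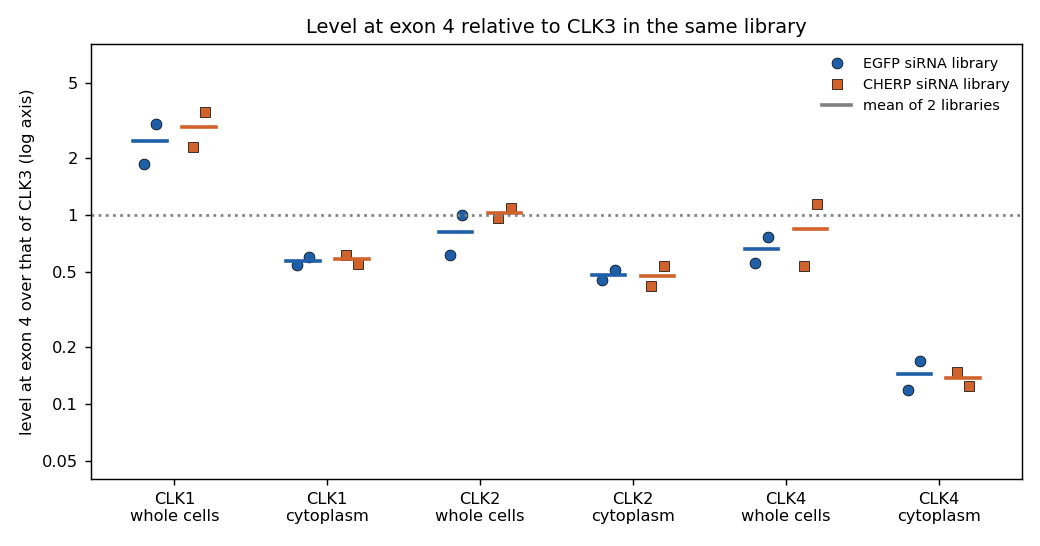
Reads per position at exon 4 of CLK1, CLK2 and CLK4 divided by those of CLK3 in the same library (log axis), in whole cells and in the cytoplasm, with a line at the mean of 2 libraries and a dotted line where both genes are equal. CLK1 lies at 1.85 to 3.50 in whole cells (4 libraries) and at 0.542 to 0.617 in the cytoplasm.

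The abundance of each kinase with CHERP siRNA was tested within a fraction, as the summed reads per position over its SE, A5SS and A3SS events after scaling. A smaller share of cells with the transcript and less of it per cell cannot be told apart in such bulk samples. In whole cells CLK3 was the kinase that fell, 1 of 4, where 17.7% of all genes were called lower and 19% higher. Its level was 3.19 and 2.87 in the controls, against 1.95 and 2.03 after CHERP siRNA. The groups did not overlap, and the log2 difference was -0.60 (SE 0.15, adjusted p = 0.010, limma). Without whole-cell CHERP siRNA library 1 or 2 the adjusted p was 0.105 or 0.0705. It was 0.204 where only the spliced junctions of retained introns were counted, at a log2 difference of -0.42.

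The level of CLK1 in whole cells was 14.7 and 15.9 in the controls, against 14.7 and 15.5 after CHERP siRNA. CLK4 was at 2.79 and 2.33 against 2.51 and 2.68. Both overlapped, with log2 differences of -0.02 (SE 0.11) and 0.02 (SE 0.15). CLK2 was at 5.56 and 6.19 against 5.40 and 5.39, a log2 difference of -0.12 (SE 0.12, adjusted p = 0.469, limma).

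In the cytoplasm CLK2 and CLK3 fell, 2 of 4, where 22.5% of all genes were called lower and 25.8% higher. CLK3 was at 2.65 and 2.90 with EGFP siRNA and at 1.51 and 1.94 with CHERP siRNA. Its log2 difference was -0.69 (SE 0.13, adjusted p = 0.00138, limma). CLK2 was at 1.43 and 1.53 against 0.991 and 1.07. Its log2 difference was -0.52 (SE 0.14, adjusted p = 0.00922). In both genes the CHERP siRNA libraries lay below the controls. Where only spliced junctions of retained introns were counted, CLK2 gave no value and CLK3 was still lower.

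CLK1 in the cytoplasm was at 0.575 and 0.615 against 0.593 and 0.483, a log2 difference of -0.15 (SE 0.20, adjusted p = 0.559, limma). CLK4 rested on 17 to 41 reads per library and was at 0.235 and 0.307 against 0.209 and 0.144. Its log2 difference of -0.60 (SE 0.29) had an adjusted p of 0.105 and turned on single libraries. Without cytoplasmic CHERP siRNA library 1 or 2 it was -0.86 or -0.35 (adjusted p = 0.0479 or 0.441), and without EGFP siRNA library 1 or 2 it was -0.79 or -0.42 (adjusted p = 0.0935 or 0.400).

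Set side by side, CLK2 differed by -0.12 in whole cells and by -0.52 in the cytoplasm, and CLK4 by 0.02 and -0.60. These differences between fractions did not pass (unadjusted p = 0.0416 and 0.0750, adjusted p = 0.986 and 0.995, interaction in limma), and 0% of all genes did. For CLK1 and CLK3 the interaction was -0.13 and -0.09 on the log2 scale.

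**Figure D5:**
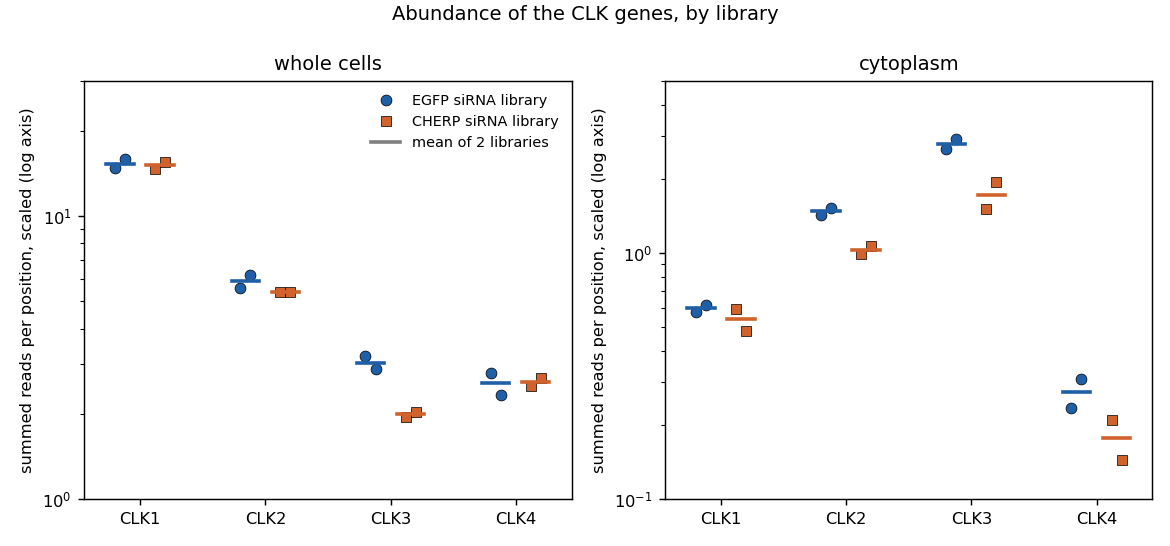
Abundance of each CLK gene in each library (summed reads per position after scaling, log axes), in whole cells and in the cytoplasm, with a line at the mean of 2 libraries. Levels are not comparable between the panels or between genes, since each gene sums its own events, and both CHERP siRNA libraries lie below both controls for CLK3 in each panel.

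The authors' own table of cytoplasmic expression lists 6757 genes, those called different between their conditions rather than all genes expressed. CLK3 is the kinase of the 4 it holds. CLK2, which was called lower in the cytoplasm here, is not in it. Its means of normalised counts for CLK3 are 697 and 985 in the conditions that have 209 and 1685 for CHERP. The column names do not tie these conditions to an siRNA, but the level of CHERP does. Cytoplasmic CHERP reads were 31 and 21 in the controls, against 3 and 4 after CHERP siRNA. The condition with 209 for CHERP is by this measure the depleted one. CLK3 is thus lower after CHERP siRNA in the authors' means as well, the same direction as found here.

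The spliced form of CLK3 intron 3 in the cytoplasm was the 1 form of 4 that passed, where 20.7% of all spliced forms and 4.04% of all retained forms did. It was at 653 and 666 scaled reads per 1000 positions with EGFP siRNA and at 344 and 353 with CHERP siRNA. The log2 difference was -0.90 (SE 0.21, adjusted p = 0.0276, limma), and without any 1 of the 4 libraries the adjusted p lay between 0.145 and 0.173. The retained form of intron 3, at 8.77 and 6.06 against 3.20 and 1.64, did not overlap either and did not pass (adjusted p = 0.276). The spliced form of CLK3 intron 4 was at 653 and 517 against 357 and 456, also without overlap, and did not pass (log2 difference -0.52, SE 0.24, adjusted p = 0.18, limma).

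Among RI events of other genes in both fractions, the levels most like those of CLK3 intron 3 over the 8 libraries were in NONO, MARS and GNL3. Their mean absolute differences from it were 0.788, 0.932 and 1.02 percentage points, among 934 events. No such search was possible for the other 3 kinases.

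Other kinases of the same CMGC group, which holds relatives such as the SRPK, DYRK, HIPK and CDK families, were called in both directions. Of 12 tested in whole cells, 2 were higher and 1 was lower, where 19% and 17.7% of all genes were. HIPK3 rose by 0.80 on the log2 scale and CDK13 by 0.66, whereas SRPK2, a cytoplasmic kinase of SR proteins, changed by -0.71 (adjusted p = 0.0014, 0.0139 and 0.0050, limma). In the cytoplasm 2 of 12 were higher and 3 lower, where 25.8% and 22.5% of all genes were, with SRPK2 at -1.10, DYRK3 at 1.23 and HIPK3 at 0.84 (adjusted p = 0.0019, 0.0019 and 0.0076). The list's median log2 difference was -0.11 in whole cells and 0.08 in the cytoplasm, against 0.02 and 0.01 over all genes.

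None of the retained introns of these kinases passed, 0 of 10 in whole cells and 0 of 4 in the cytoplasm, where 1.77% and 0.299% of all retained introns did. The smallest adjusted p-values in whole cells were those of an intron of PRPF4B (4.59% and 5.40% against 0.717% and 2.93%, adjusted p = 0.270) and of introns of CDK11A, whose near-identical copy CDK11B makes its reads uncertain. One of these was at 30.8% and 16.6% against 8.12% and 12.1%, and the other at 0% in 3 libraries and 9.84% in a CHERP siRNA library. In the cytoplasm all 4 were in PRPF4B, with adjusted p-values of at least 0.979 (quasi-binomial test).

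The SR proteins and the TRA2 factors are the substrates of the CLKs. Of 11 tested in whole cells, 5 were lower and 0 higher, where 17.7% of all genes were lower and 19% higher. Of 12 in the cytoplasm, 6 were lower and 2 higher, where 22.5% and 25.8% of all genes were. SRSF11 changed by -0.82 in whole cells and -1.07 in the cytoplasm, and TRA2A by -0.68 and -0.74. SRSF3 changed by -0.42 in whole cells, whereas SRSF9 rose by 1.64 in the cytoplasm (adjusted p of 0.0093 or less for each, limma). The list's median log2 difference was -0.32 in whole cells and -0.30 in the cytoplasm, against 0.02 and 0.01 over all genes.

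Retained introns of these factors were called in 0 of 9 events in whole cells and in 1 of 5 in the cytoplasm, beside 1.77% and 0.299% of all retained introns. The called intron, in SRSF5 (chromosome 14, 70235969 to 70237183), was at 12.5% and 10.0% with EGFP siRNA and at 4.94% and 4.55% with CHERP siRNA. The other SRSF5 introns named there were at 4.04% and 9.69% against 1.62% and 2.03% (adjusted p = 0.142, quasi-binomial test) and at 100% and 100% against 100% and 71.8%. In whole cells the SRSF5 intron that was called in the cytoplasm was at 40.7% and 40.2% against 34.7% and 37.04%. An intron of TRA2A went the other way, at 67.2% and 54.6% against 78.3% and 79.1% (adjusted p = 0.363, quasi-binomial test). Also named by the rule was a short intron of SRSF5, at 11.4% and 10.96% against 7.38% and 8.69% (adjusted p = 0.196).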

How the data were processed

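Strand-specific mRNA libraries (TruSeq, NextSeq) were made from whole or cytoplasmic RNA, as biological duplicates. The authors mapped the reads with STAR 2.5.2b to hg19, and quantified the cytoplasmic libraries with RSEM 1.2.25, GENCODE 19 and EBSeq. They ran rMATS, whose version is not given in the sources used here. The deposited rMATS tables hold inclusion and skipping reads with no normalization and the effective length of each form. A cell joins the reads of 2 libraries, and count models were not run on them. The authors' expression table holds a mean of normalised counts per condition, printed as their means. Its fold ratio and posterior probability, the p-values and the FDR of the tables, and 20 columns of inclusion levels were not used.

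Members and lists were chosen with earlier results of these data known. Named were every retained intron of the kinases, each kinase's skipped exon with the most whole-cell reads, further events with an adjusted p under 0.05, and, of each list, the 3 genes and 3 retained introns with the smallest adjusted p per fraction. Likeness was the mean absolute difference of the level among retained introns with a mean of at least 20 reads.

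Inclusion against skipping reads were fitted with a quasi-binomial model. Its dispersion was moderated over all events of a type (squeezeVar, limma 3.58.1, R 4.3.3) with a trend on reads and a floor of 1. The prior degrees of freedom were infinite, so the spread of an event between its own libraries carried no weight. The floor was set before the moderation, an order chosen after the numbers of calls were seen. Adjustment was by Benjamini-Hochberg within an event type at 0.05. Comparisons between fractions carried the ratio of effective lengths as an offset.

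Abundance was scaled by median ratios in each fraction and tested on log2(value + 0.01) with limma, for every gene that averaged 20 reads or more per library. The retained and spliced forms were tested likewise. A fold on this scale understates changes of low genes. The quasi-binomial test between siRNAs, for RI and SE events, and the limma test of abundance between siRNAs were run on simulated data first. The other event types, the comparisons between fractions, the interactions, the forms and limma on the log2 odds were not. Sequences, gene parts and intron starts came from GRCh37 and GENCODE 44 lifted to it (Python 3.11.15, pysam 0.24.0). The confluency at transfection was 20% in the labels, whereas the paper's methods give a higher value.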

Additional observations from a re-analysis of the deposited data

How the results depend on the processing

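In whole cells, where 1 CLK event was called, 3 were called without a trend in the dispersion, 3 with the floor set after the moderation (chosen after seeing the data), 2 when events averaging under 50 reads were left out, 0 with limma on the log2 odds, and 0 to 0 without any 1 library. Over all events the 883 calls became 2140, 2774 and 0 without the trend, with the later floor and with limma, and 64 to 106 without 1 library. The 90 cytoplasmic calls became 390, 619 and 0, 403 with the prior taken from events with 10 reads of the rarer form, and 5 to 11 without 1 library. The difference between fractions, 1 call with each siRNA, was 0 to 1 without 1 library. The abundance calls were 0 to 1 in whole cells and 2 to 3 in the cytoplasm without 1 library, and 0 and 1 where only spliced junctions of retained introns were counted, which CLK2 lacks in the cytoplasm. The forms gave 0 to 1 calls without 1 library.

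Signs changed where the difference was small. The log2 difference of CLK1 in whole cells was 0.0047 by spliced junctions and -0.0735 to 0.0348 without 1 library. That of CLK4 was -0.0304 scaled by totals, -0.0255 from SE events alone, -0.33 by spliced junctions and -0.11 to 0.15 without 1 library. Without 1 library, retention differences in points were -0.592 to 1.16 for CLK1 intron 7, -6.62 to 8.09 for CLK2, -1.69 to 3.50 for CLK3 intron 3, -6.28 to 0.0932 for CLK3 intron 4 in whole cells and -1.25 to 0.168 in the cytoplasm, and -5.02 to 13.4 for the CLK4 stretch with exon 4. The spliced form of the CLK1 stretch was at -0.0396 to 0.542. The cause was not tested. Scaling by totals moved the median of all cytoplasmic genes from 0.01 to -0.10 and the share of calls that were higher from 53.5% to 40.2%. In the cytoplasm, CLK2 and CLK3 stayed lower and called under every alternative that gave them a value.

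No paired analysis was possible because the columns carry no replicate numbers. Cytoplasmic events were shallow, and each group has 2 libraries.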
